A study of Mus musculus with 20 samples.

Results

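The genes described here encode the constitutive proteasome: 42 of the 9228 genes in the expression table of mouse peripheral blood. They were taken by symbol, as every gene named Psm followed by a letter from a to g and a number, and Psmb8, Psmb9 and Psmb10, the interferon-inducible catalytic subunits, were set apart. The 42 genes comprised 7 alpha ring subunits, 7 beta ring subunits, 6 ATPases of the base, 11 other subunits of the regulatory particle, 4 activator subunits, 1 inhibitor and 6 assembly chaperones. Whole peripheral blood RNA had been sequenced from 20 female C57BL/6 mice aged 22 to 23 weeks, 4 of each of 5 genotypes. WT mice carried none of the targeted alleles. The other 4 genotypes all lacked the kinase gene Lyn, a state used as a mouse model of systemic lupus erythematosus, and were labelled Lyn KO with nothing added, with Ifnar1 KO, with Irf5 Het or with Irf5 KO. Below, the first of these is written Lyn-/-, the mice with the interferon receptor allele Lyn-/-Ifnar1-/-, and those with the Irf5 allele on 1 or both chromosomes Lyn-/-Irf5+/- or Lyn-/-Irf5-/-. Ifnar1 encodes a chain of the type I interferon receptor and Irf5 a transcription factor that acts downstream of Toll-like receptors. The alleles were germline and so not restricted to any cell type, and no animal had been given a treatment. The comparisons asked what loss of Lyn did to blood expression, and what loss of type I interferon signalling or of IRF5 did on top of it.

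The proteasome degrades proteins that carry ubiquitin chains. Its core particle is a barrel of alpha rings, which gate the entrance, and beta rings, which hold the catalytic sites of Psmb5, Psmb6 and Psmb7. The regulatory particle caps the barrel, and it binds and unfolds ubiquitinated proteins with its ring of ATPases. It can be replaced at the barrel's end by activators that need no ubiquitin. These are PA28 alpha and beta (Psme1 and Psme2), which interferon induces together with Psmb8, Psmb9 and Psmb10, the nuclear ring PA28 gamma (Psme3), and PA200 (Psme4). In blood, white cells carry many proteasomes with the inducible catalytic subunits, and reticulocytes use ubiquitin and the proteasome to clear proteins while they mature.

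The promoters of the members with the widest ranges between mice, and of Psme1, are shown because the results below turn on these genes. Each window is RefSeq sequence of build GRCm38.p6, 5′ to 3′ on the strand of the gene, from 250 bases before a start site that RefSeq annotates to 50 bases after it. For Psme1, Psme3, Psme4 and Psmd4 that site is the 5′ end of the RefSeq gene, whereas for Psmf1 it lies 2889 bases inside the gene, whose upstream start has no window here. Capitals mark a match to one of the motifs that were searched on both strands.
Psme1, chr14:55578244-55578543, plus strand: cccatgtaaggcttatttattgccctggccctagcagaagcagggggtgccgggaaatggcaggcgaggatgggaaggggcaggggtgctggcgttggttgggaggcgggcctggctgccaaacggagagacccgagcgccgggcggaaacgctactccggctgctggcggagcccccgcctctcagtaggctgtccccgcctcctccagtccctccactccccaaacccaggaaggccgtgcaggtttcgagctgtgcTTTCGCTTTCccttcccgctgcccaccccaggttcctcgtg
Psme3, chr11:101315963-101316262, plus strand: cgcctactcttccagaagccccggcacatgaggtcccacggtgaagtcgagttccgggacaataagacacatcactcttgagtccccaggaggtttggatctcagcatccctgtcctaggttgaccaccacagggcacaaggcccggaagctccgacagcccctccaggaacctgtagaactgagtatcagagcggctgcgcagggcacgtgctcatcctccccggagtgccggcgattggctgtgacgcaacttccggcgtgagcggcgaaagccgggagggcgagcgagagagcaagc
Psme4, chr11:30771525-30771824, plus strand: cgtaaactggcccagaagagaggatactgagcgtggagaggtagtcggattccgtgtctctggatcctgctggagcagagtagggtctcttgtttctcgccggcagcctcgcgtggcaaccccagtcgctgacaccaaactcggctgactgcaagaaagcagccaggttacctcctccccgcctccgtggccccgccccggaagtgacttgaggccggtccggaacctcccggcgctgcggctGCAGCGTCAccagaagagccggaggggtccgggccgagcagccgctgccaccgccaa
Psmd4, chr3:95042565-95042864, minus strand: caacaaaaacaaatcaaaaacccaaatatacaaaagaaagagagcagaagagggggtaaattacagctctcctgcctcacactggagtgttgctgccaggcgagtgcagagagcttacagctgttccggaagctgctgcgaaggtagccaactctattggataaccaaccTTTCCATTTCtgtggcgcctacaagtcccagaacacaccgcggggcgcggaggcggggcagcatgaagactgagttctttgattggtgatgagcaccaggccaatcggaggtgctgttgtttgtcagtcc
Psmf1, chr2:151741261-151741560, minus strand: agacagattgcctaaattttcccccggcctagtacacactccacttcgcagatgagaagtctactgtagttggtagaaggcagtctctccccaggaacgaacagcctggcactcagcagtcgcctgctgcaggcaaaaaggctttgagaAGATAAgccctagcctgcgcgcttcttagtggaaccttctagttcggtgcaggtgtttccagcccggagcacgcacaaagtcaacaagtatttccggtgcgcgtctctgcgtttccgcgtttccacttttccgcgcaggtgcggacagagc
The capitals in Psme1 and Psmd4 are the interferon-stimulated response element, read as GAAA, any 2 bases and GAAA again, on the opposite strand. Those in Psme4 are TGACNNNGC on the opposite strand, the core of the antioxidant response element bound by NFE2L1 or NFE2L2 with a small MAF protein, and those in Psmf1 are AGATAA, the motif of GATA factors. No motif searched was found in the window of Psme3.

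Windows were matched for 35 of the 42 members, and Psmb1, Psmb2, Psmb7, Psmc3, Psmd3, Psmd7 and Psmg2 had none. That element stood in the windows of 5 of the 35 (14.3%), namely Psmb3, Psmd4, Psmd9, Psme1 and Psmg4, against 4.17% of the 7024 matched genes of the expression table and 3.44% of all 32851 windows. TGACNNNGC was found in 6 (17.1%), against 17.3% and 12.4%. AGATAA was found in 3 (8.57%), against 8.13% and 11.2%, and TTCNNNGAA, the gamma-activated site, only in Psmd2 (2.86%), against 8.53% and 8.3%. These are counts of letters in a window, and binding was not measured.

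The libraries held between 1020207 and 2414393 reads over the genes of the table, as recovered from the RPKM steps, of which 4948 to 15994 fell on the 42 members. The median member had 21 to 99.5 reads in a library, so that small differences in the lower members could not be detected at this depth. The 3 hemoglobin genes in the table took 55.5% to 78.9% of the summed RPKM. Lyn was at 34.6 ± 2.44 RPKM (SD, n = 4) in WT and between 2.42 and 13.8 RPKM in all 16 mice labelled as lacking it. Ifnar1 was not low in the mice labelled Lyn-/-Ifnar1-/- (6.23 to 10.6 RPKM, against 4.58 to 6.49 in the other 16 mice), and Irf5 was not low in those labelled Lyn-/-Irf5-/- (35.1 to 40.8 RPKM, against 20.1 to 21.7 in WT). These values sum the reads of all exons of a gene, so they do not check the last pair of labels, and the names below are those of the labels. The Lyn-/-Irf5+/- libraries were registered after the others and no batch is labelled, so batch and genotype cannot be told apart there.

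Blood is a mixture, and its markers moved with genotype. Between Lyn-/- and WT, 17 of 26 erythroid markers rose, 12 of 14 neutrophil markers and 10 of 10 monocyte markers rose, 12 of 12 B cell, 6 of 12 T cell and 5 of 8 NK cell markers fell, and 2 of 9 platelet markers rose. The summed level of the 26 erythroid markers was 32730 to 56310 RPKM in WT, 45680 to 112200 in Lyn-/-, 30320 to 165200 in Lyn-/-Ifnar1-/-, 36100 to 51240 in Lyn-/-Irf5+/- and 22870 to 37990 in Lyn-/-Irf5-/-. None of these 26 markers was at 0 in any mouse. The Lyn-/-Ifnar1-/- mice did not form a single group on this measure: mouse 3 and mouse 4 had a mean log2 level of 8.18 and 7.15, against 5.86 and 5.75 in mouse 1 and mouse 2. In such bulk samples, fewer cells of a type and less RNA per cell cannot be told apart.

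All 42 members were detected, and their levels spanned a wide range. Psme3 was the highest of them, with a mean of 847 RPKM over the 20 mice and a range of 334.5 to 2269, and it made up 29.4% to 61.5% of the summed RPKM of the members in a mouse. Psmd4, which encodes a ubiquitin receptor of the regulatory particle, followed with a mean of 223 RPKM (89.0 to 568.1). Both stood above the genes of the rings they work with: the medians of the mean RPKM were 20.9 in the alpha ring, 22.3 in the beta ring, 12.4 among the base ATPases and 9.0 among the other subunits of the regulatory particle. RPKM is scaled by gene length, so these levels may be set side by side.

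The lowest levels belonged to the assembly chaperones, which build the rings and the base and do not stay in the finished particle. Their median was 3.76 RPKM, and Psmd9, a chaperone of the base, was the lowest member with a mean of 2.10 RPKM (0.944 to 4.25). Psmd9 stood at 2.398, 2.02, 1.41 and 2.27 RPKM in WT mice 1 to 4 and at 4.25, 1.70, 2.53 and 1.86 in Lyn-/- mice. The groups overlapped, and the log2 fold change of 0.24 ± 0.25 (SE) did not pass the limma test (adjusted p = 0.494). Psmd9 was at 0.944 to 2.73 RPKM in Lyn-/-Ifnar1-/-, 1.57 to 2.41 in Lyn-/-Irf5+/- and 1.55 to 2.77 in Lyn-/-Irf5-/- mice.

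**Figure D1:**
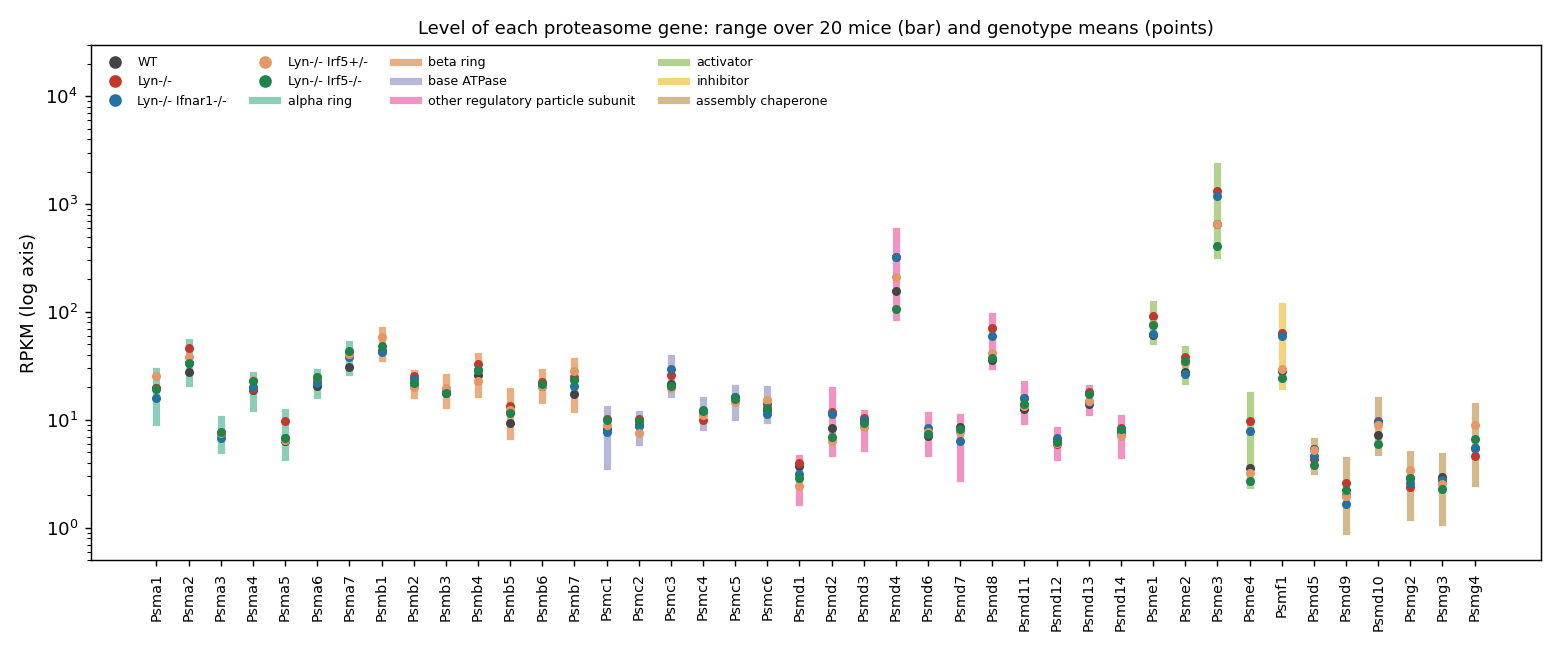
Level of each of the 42 proteasome genes in RPKM on a log axis, ordered by role; the bar spans the lowest to the highest of the 20 mice and the points are the means of the 5 genotypes. Psme3 (334.5 to 2269 RPKM) and Psmd4 (89.0 to 568.1 RPKM) lie above the other genes, and the assembly chaperones are the lowest group, down to Psmd9.

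The members also differed in how far they varied between mice. The highest mouse exceeded the lowest by 6.78-fold for Psme3, 6.77-fold for Psme4, 6.38-fold for Psmd4 and 5.53-fold for Psmf1, which encodes the inhibitor PI31. For Psmb2 the same ratio was 1.60, for Psma6 1.64, for Psmd13 1.65 and for the ATPase gene Psmc4 1.77. Among the rarely sequenced chaperones it reached 5.21 for Psmg4 and 4.10 for Psmg3, whose medians were 10 and 7.5 reads a library.

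Across the 5 genotypes, 10 of the 42 members (23.8%) differed by limma's F test after Benjamini-Hochberg adjustment over the 8696 genes tested, against 33.2% of all genes. The share among the members was thus below the background. They were all 4 activator genes (Psme4, adjusted p = 0.00397, Psme3, 0.0131, Psme1, 0.0214, and Psme2, 0.0265), the inhibitor gene Psmf1 (0.0316), 4 genes of the regulatory particle (Psmd4, 0.00776, Psmd2, 0.00880, Psmd8, 0.0107, and Psmd1, 0.0253) and the alpha ring gene Psma2 (0.0236). None of the 7 beta ring genes passed (lowest adjusted p = 0.0699), nor any of the 6 base ATPases (0.102) or of the 6 assembly chaperones (0.0940). Without Lyn-/- mouse 2 the count was 6, and the share of all genes in that fit is not given here.

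**Figure D2:**
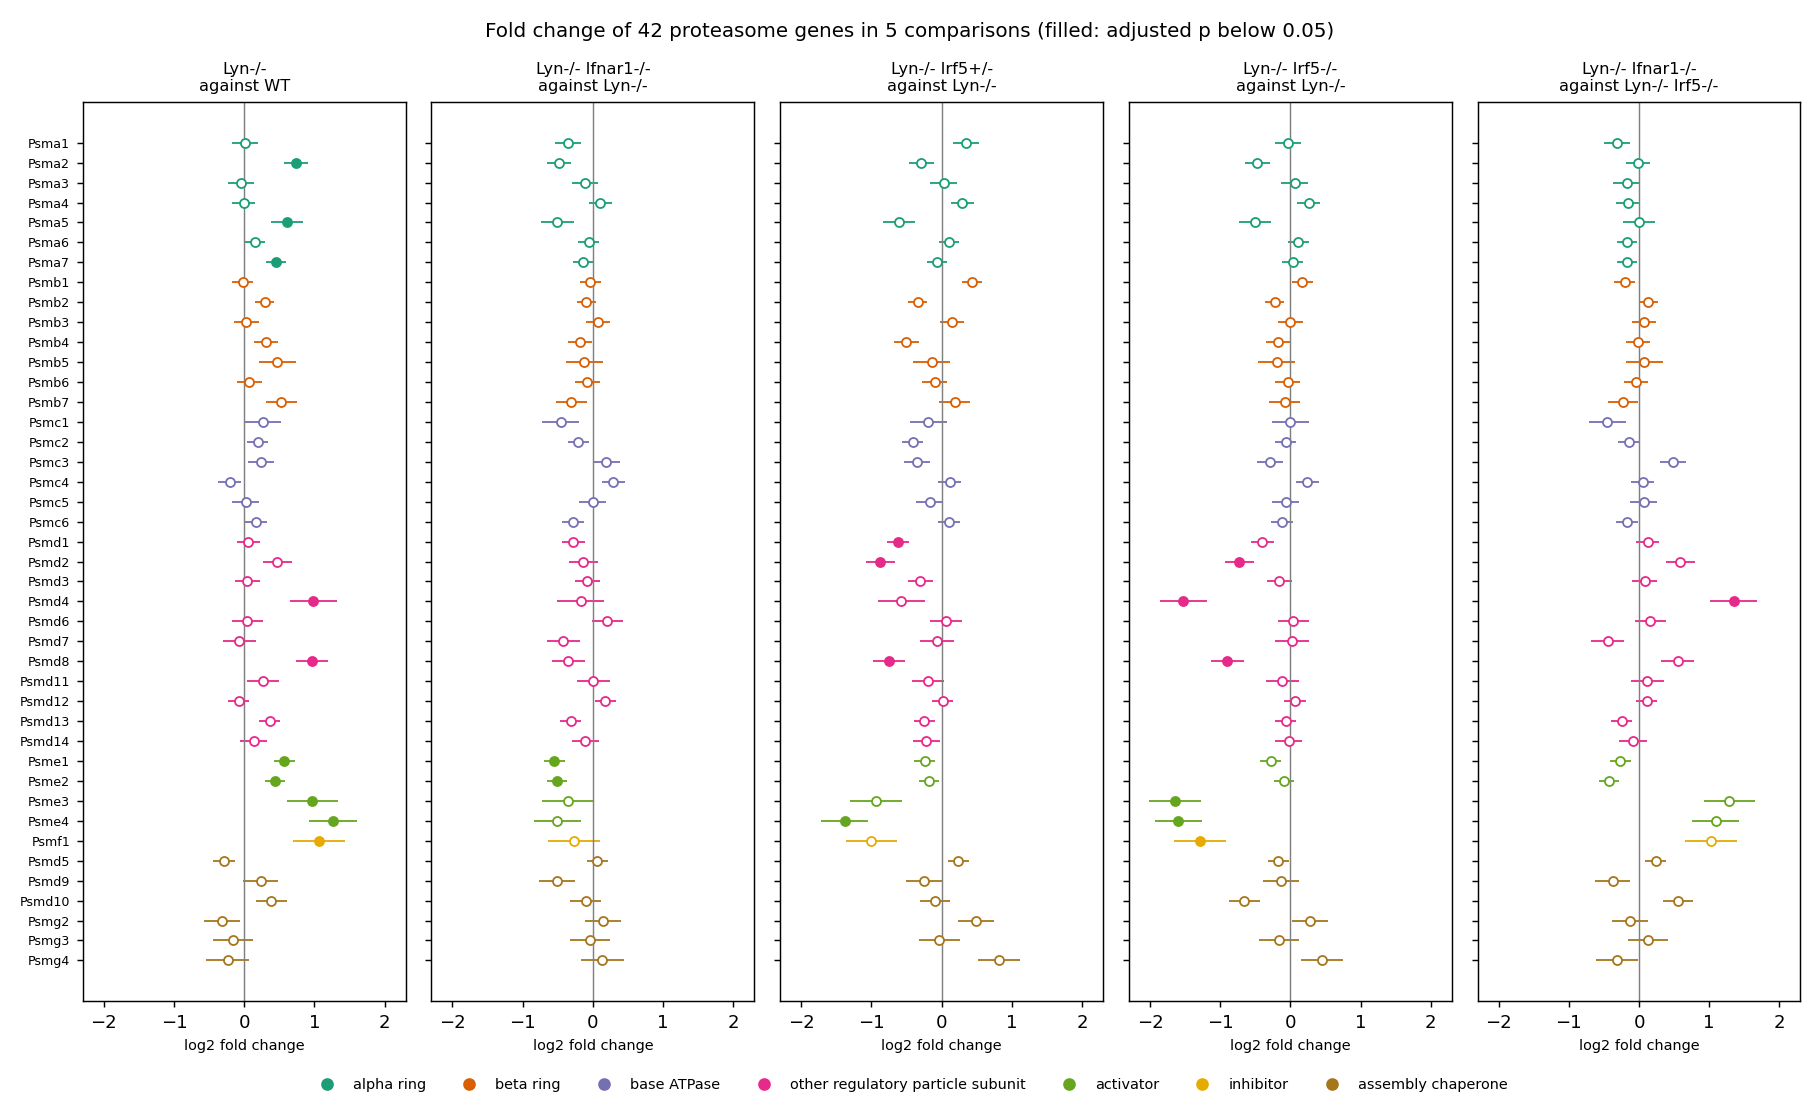
log2 fold change of log2(RPKM + 0.5) with its SE for the 42 members in the 5 comparisons, coloured by role; filled points passed the limma test at an adjusted p under 0.05. Filled points number 10 in Lyn-/- against WT, all to the right of 0, and 2, 4 and 6 in the next 3 comparisons, all to the left of 0.

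Loss of Lyn alone went with higher levels of 10 of the 42 members and with lower levels of none (limma, with 14 higher and 0 lower at an unadjusted p under 0.05). This is 23.8% of the members, against 32.5% of all genes called in either direction, 17.1% called higher and 15.5% called lower. The 10 were the 4 activator genes, the inhibitor Psmf1, Psmd4 and Psmd8 of the regulatory particle, and the alpha ring genes Psma2, Psma5 and Psma7. No base ATPase, beta ring or chaperone gene was called. The median log2 fold change of the members was 0.21, against -0.03 over all genes, and 32 of the 42 values (76.2%) were above 0, against 47.7% of all genes. When libraries were scaled to the same RPKM sum, the members' median was -0.03 and that of all genes -0.25, and when the hemoglobin genes were left out of that sum these were -0.35 and -0.53. The members' median changed sign under both scalings and stayed above that of all genes.

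All 4 activator genes were called higher. Psme1, encoding PA28 alpha, was at 69.7, 60.5, 53.8 and 61.4 RPKM in WT mice 1 to 4 and at 73.9, 93.2, 83.7 and 119.4 in Lyn-/- mice. Every Lyn-/- mouse lay above every WT mouse, and the log2 fold change was 0.57 ± 0.15 (adjusted p = 0.00596, limma). Psme2, its partner PA28 beta, was at 32.0, 24.2, 24.8 and 30.7 RPKM in WT and at 33.0, 38.7, 35.0 and 45.2 in Lyn-/- mice. These groups also did not overlap, with a log2 fold change of 0.44 ± 0.14 (adjusted p = 0.0246). Psme4, the PA200 gene, was at 3.86, 3.93, 3.77 and 2.78 RPKM in WT and at 5.99, 10.7, 7.71 and 14.7 in Lyn-/- mice. It had the largest fitted change of the members, a log2 fold change of 1.27 ± 0.34 (adjusted p = 0.00701). Psme3, for PA28 gamma, was at 496.7, 667.2, 859.9 and 590.8 RPKM in WT and at 758.8, 1495, 1151 and 1917 in Lyn-/- mice. Here Lyn-/- mouse 1 fell within the WT range, and the log2 fold change of 0.97 ± 0.37 was close to the threshold (adjusted p = 0.0474). The calls of Psme1 and Psme2 were lost, and their log2 fold changes were -0.014 and -0.14, when libraries were scaled to the RPKM sum outside hemoglobin (adjusted p = 0.964 and 0.672, limma).

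Psmf1, the inhibitor gene, was at 22.2, 32.5, 33.4 and 25.6 RPKM in WT and at 35.2, 72.9, 50.6 and 96.1 in Lyn-/- mice (log2 fold change 1.07 ± 0.37, adjusted p = 0.0319, limma). The ubiquitin receptor gene Psmd4 was at 134.9, 158.4, 172.3 and 156.3 RPKM in WT and at 198.5, 350.1, 285.5 and 451.3 in Lyn-/- mice (0.99 ± 0.34, adjusted p = 0.0299). Psmd8, a subunit of the particle's lid, was at 34.6, 35.4, 40.7 and 31.8 RPKM in WT and at 61.0, 75.9, 58.6 and 88.4 in Lyn-/- mice (0.97 ± 0.23, adjusted p = 0.00332). None of these 3 genes had overlapping groups, and in all 3 the highest level was that of Lyn-/- mouse 4 and the next that of mouse 2.

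In the alpha ring, Psma2 was at 31.4, 28.0, 21.8 and 30.0 RPKM in WT and at 44.6, 52.1, 37.9 and 52.2 in Lyn-/- mice. Its log2 fold change of 0.74 ± 0.17 had the lowest adjusted p of the members (0.00288, limma). Psma7 was at 32.0, 27.8, 29.4 and 34.3 RPKM in WT and at 50.7, 41.0, 44.7 and 34.7 in Lyn-/- mice (0.45 ± 0.14, adjusted p = 0.0204). The groups were apart for both, although Lyn-/- mouse 4 was only just above WT for Psma7. Psma5 was at 8.57, 4.55, 4.64 and 7.92 RPKM in WT and at 8.15, 11.9, 8.51 and 10.8 in Lyn-/- mice, with overlapping groups (0.62 ± 0.23, adjusted p = 0.0459). The reads of Psma2 share their locus with AW209491 on the same strand, those of Psme1 with Emc9 and those of Psme4 with the pseudogene Gm12103, both on the opposite strand, and how the counting treated such reads or processed pseudogenes is not given in the sources used here.

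Several of these genes ranked the Lyn-/- mice as the erythroid markers did, in about the same share as all genes. The mean log2 level of the 26 erythroid markers was 5.75, 6.00, 6.27 and 5.67 in WT mice 1 to 4 and 6.63, 7.54, 7.11 and 8.03 in Lyn-/- mice. Within the Lyn-/- mice, Psme1, Psme2, Psme3, Psme4, Psmf1 and Psmd4 had the same order as this score, 6 of 42 members (14.3%) against 14.2% of all genes tested. The shares were not alike in every genotype. They were 4.76% of members against 5.96% of all genes in WT and 7.14% against 8.83% in Lyn-/-Ifnar1-/- mice. In Lyn-/-Irf5+/- mice they were 4.76% against 2.58%, and in Lyn-/-Irf5-/- mice 14.3% against 6.61%. With the score as a covariate in the model, 2 members were higher (Psma7 and Psmc1) and 1 lower (Psmd5). The score did not overlap between WT and Lyn-/- mice, so score and genotype cannot be told apart in this comparison. In that fit 13.6% of all genes were higher and 10.7% lower. Its log2 fold changes were -0.29 for Psme3 (adjusted p = 0.111, limma), -0.17 for Psmd4 (0.429), -0.26 for Psmf1 (0.193), 0.09 for Psme4 (0.758), 0.41 for Psme1 (0.0658) and 0.35 for Psme2 (0.134). Without Lyn-/- mice 2 and 4, which had the highest erythroid scores, 1 member was called (Psma7). Of all genes 10.3% were then called higher and 7.99% lower. A single mouse also moved the count: 6 members were called higher without WT mouse 2 or without Lyn-/- mouse 2, and 5 without Lyn-/- mouse 4, in fits where between 14% and 14.4% of all genes were. Psme1, Psme4, Psmd8 and Psma2 kept their call whichever of the 20 mice was left out. The part of monocytes and neutrophils, whose markers also rose, was not tested.

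**Figure D3:**
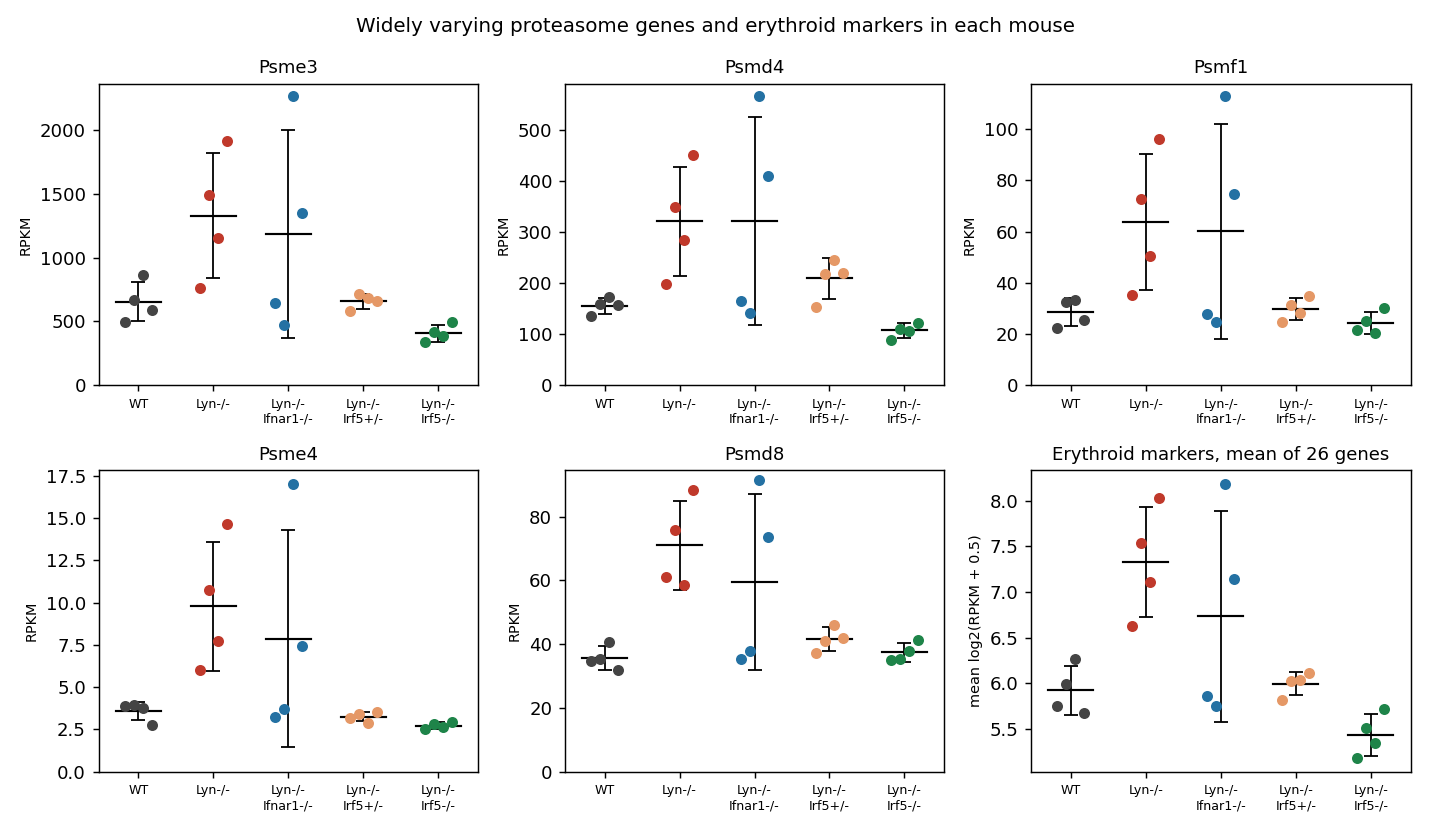
RPKM of Psme3, Psmd4, Psmf1, Psme4 and Psmd8 in each mouse by genotype, with the mean and SD of the 4 mice, and in the last panel the mean log2(RPKM + 0.5) of 26 erythroid markers in the same mice. Lyn-/- mice 2 and 4 and Lyn-/-Ifnar1-/- mice 3 and 4 stand above all WT mice in all 6 panels, and the Lyn-/-Irf5-/- mice lie below all Lyn-/- mice.

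The catalytic subunits gave no called change between Lyn-/- and WT, in either the constitutive or the inducible form. Psmb5, the chymotrypsin-like subunit, was at 10.7, 7.02, 9.16 and 10.5 RPKM in WT and at 18.4, 7.58, 13.9 and 14.6 in Lyn-/- mice (log2 fold change 0.47 ± 0.26, adjusted p = 0.173, limma). Psmb6, the caspase-like subunit, was at 19.1, 21.9, 20.5 and 21.4 RPKM in WT and at 26.3, 17.8, 27.7 and 17.3 in Lyn-/- mice (0.07 ± 0.18, adjusted p = 0.788). Psmb7, the trypsin-like subunit, was at 15.1, 22.6, 12.7 and 18.5 RPKM in WT and at 27.3, 20.9, 22.4 and 28.4 in Lyn-/- mice (0.53 ± 0.22, adjusted p = 0.0679). The groups overlapped in all 3 genes.

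Of their inducible counterparts, Psmb8 exceeded Psmb5, which it replaces, in every mouse of the series. Psmb8 was at 62.6, 68.8, 56.5 and 60.2 RPKM in WT and at 61.5, 56.1, 56.4 and 52.2 in Lyn-/- mice (log2 fold change -0.13 ± 0.15, adjusted p = 0.518, limma). Psmb9, which replaces Psmb6, was at 26.2, 24.6, 22.3 and 28.2 RPKM in WT and at 28.0, 30.6, 21.8 and 20.1 in Lyn-/- mice (-0.03 ± 0.15, adjusted p = 0.910). Psmb10, which replaces Psmb7, was at 16.1, 17.7, 14.7 and 18.6 RPKM in WT and at 24.7, 18.02, 22.8 and 17.2 in Lyn-/- mice (0.29 ± 0.14, adjusted p = 0.128). So PA28 alpha and beta were called higher in Lyn-/- blood and the inducible catalytic subunits were not, a difference between genes that was itself not tested.

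The ratio of an inducible subunit to its constitutive counterpart within a mouse does not depend on the scaling of the library. The mean log2 ratio of Psmb8 to Psmb5 was 2.68 ± 0.35 (SD, n = 4) in WT, 2.08 ± 0.50 in Lyn-/-, 2.09 ± 0.45 in Lyn-/-Ifnar1-/-, 2.43 ± 0.57 in Lyn-/-Irf5+/- and 2.43 ± 0.47 in Lyn-/-Irf5-/- mice. The mean log2 ratio of Psmb9 to Psmb6 was 0.28 ± 0.16 in WT, 0.18 ± 0.45 in Lyn-/-, 0.32 ± 0.20 in Lyn-/-Ifnar1-/-, 0.69 ± 0.12 in Lyn-/-Irf5+/- and 0.61 ± 0.29 in Lyn-/-Irf5-/- mice. For Psmb10 to Psmb7 it was -0.01 ± 0.23 in WT, -0.26 ± 0.32 in Lyn-/-, 0.14 ± 0.44 in Lyn-/-Ifnar1-/-, -0.31 ± 0.47 in Lyn-/-Irf5+/- and -0.04 ± 0.14 in Lyn-/-Irf5-/- mice. None of the 15 comparisons passed the exact two-sided permutation test, whose smallest possible p is 0.0286 with 4 mice against 4. After adjustment over the 15 tests, a lone comparison at that smallest p could not have passed either. The adjusted test therefore cannot decide whether any ratio, taken alone, differed. The lowest exact p, above that smallest value, was for Psmb9 to Psmb6 in Lyn-/-Irf5+/- against Lyn-/- (difference 0.51 ± 0.23 SE, exact p = 0.0857, adjusted p = 0.571). The largest difference was Psmb8 to Psmb5 in Lyn-/- against WT, at -0.60 ± 0.30 (exact p = 0.114, adjusted p = 0.571).

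**Figure D4:**
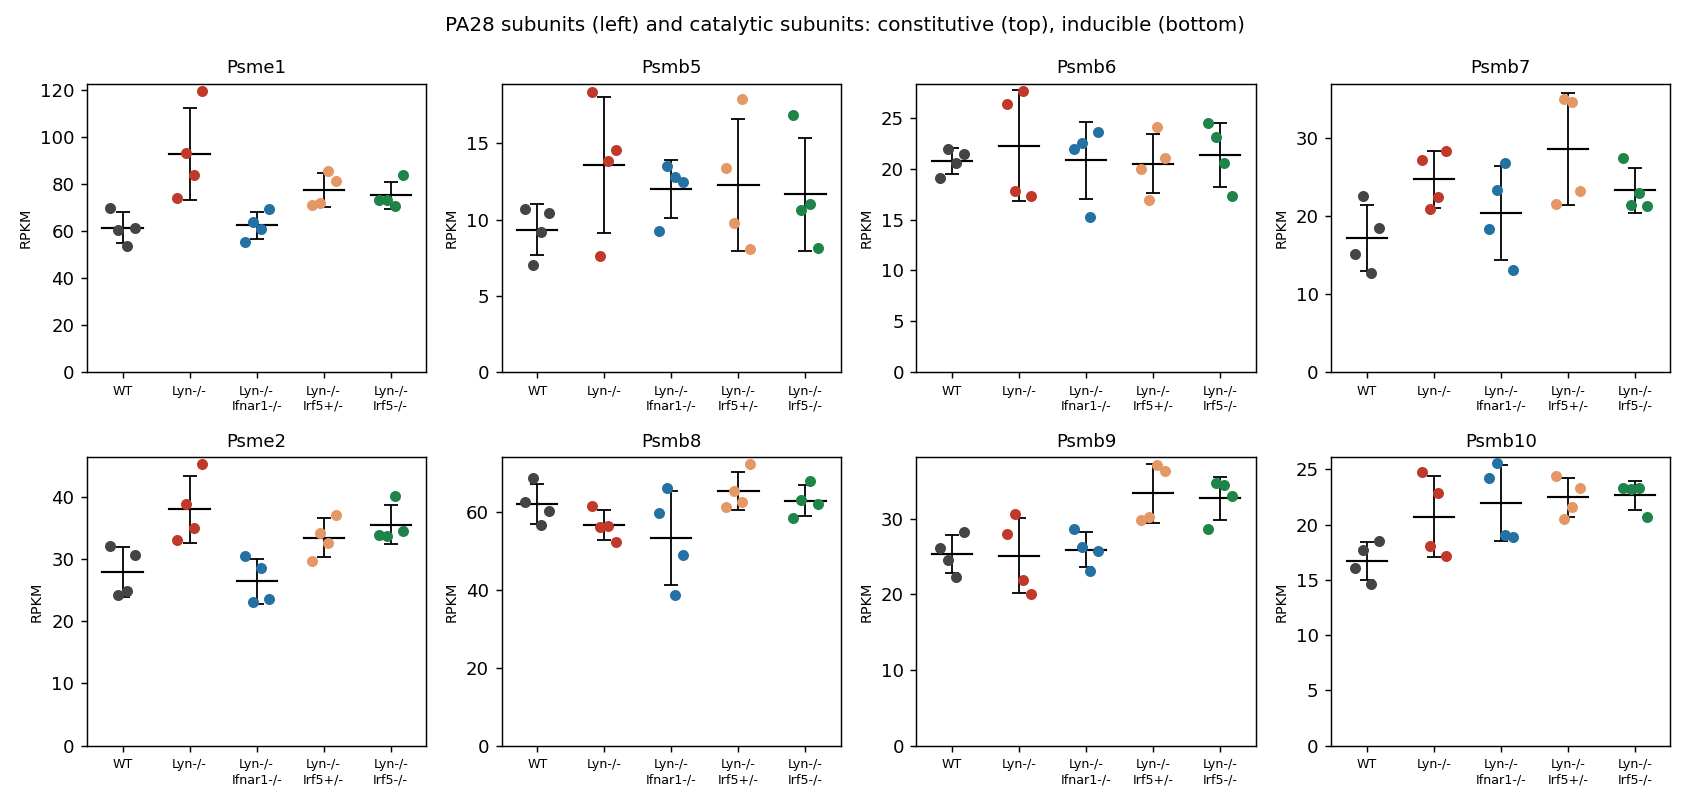
RPKM in each mouse by genotype with the mean and SD of the 4 mice. The top row holds Psme1 and the constitutive catalytic subunits Psmb5, Psmb6 and Psmb7. The bottom row holds Psme2 and the inducible subunits Psmb8, Psmb9 and Psmb10. Psme1 and Psme2 stand higher in Lyn-/- than in WT and Lyn-/-Ifnar1-/- mice with no overlap, while the catalytic subunits overlap between Lyn-/- and WT in every panel.

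Loss of Ifnar1 in the Lyn-/- mice went with lower Psme1 and Psme2 and with no other called member. These were 2 of 42 (4.76%), against 6.69% of all genes called in either direction, 2.74% called higher and 3.96% called lower. Psme1 was at 55.5, 63.9, 60.9 and 69.4 RPKM in Lyn-/-Ifnar1-/- mice 1 to 4, below every Lyn-/- mouse and within the WT range (log2 fold change -0.55 ± 0.15, adjusted p = 0.0301, limma). Psme2 was at 30.4, 23.1, 28.6 and 23.6 RPKM, again below every Lyn-/- mouse (-0.51 ± 0.14, adjusted p = 0.0345). Mouse 3 and mouse 4, whose erythroid markers were high, were no exception for either gene. With the erythroid score as a covariate Psme1 and Psme2 were among 5 members called lower (with Psma1, Psmc1 and Psmd7). In that fit 11.3% of all genes were called lower and 11.9% higher. Without mice 3 and 4 Psme1 was called and Psme2 was not (adjusted p = 0.0571, limma).

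The other activators did not follow this pattern. Psme3 was at 646.9, 474.9, 2269 and 1350.0 RPKM in Lyn-/-Ifnar1-/- mice (-0.35 ± 0.37, adjusted p = 0.607, limma), so that mouse 3 held the highest value of the whole series and mouse 2 a value below all WT mice. Psmd4, at 165.0, 142.4, 568.1 and 411.1 RPKM, Psmf1, at 27.9, 24.6, 113.1 and 74.9, Psme4, at 3.26, 3.74, 17.0 and 7.46, and Psmd8, at 35.4, 37.8, 91.6 and 73.8, had the same split between mice 1 and 2 and mice 3 and 4. In these 4 genes mice 1 and 2 lay below all Lyn-/- mice and mouse 3 above all of them. Without mice 3 and 4, 7 members were called lower than in Lyn-/- (Psme1, Psme3, Psme4, Psma2, Psmf1, Psmd4 and Psmd8), in a fit where 8.51% of all genes were called lower.

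The next members in order of adjusted p did not pass. Psma2 was at 25.1, 30.9, 46.2 and 32.9 RPKM (-0.48 ± 0.17, adjusted p = 0.0967, limma), Psma5 at 5.74, 7.67, 5.35 and 8.51 (-0.51 ± 0.23, adjusted p = 0.195) and Psmd13 at 13.2, 13.7, 11.9 and 19.6, against 17.6, 18.3, 18.6 and 17.3 in Lyn-/- mice (-0.32 ± 0.15, adjusted p = 0.213). The members' median log2 fold change was -0.13, against 0.02 over all genes. The calls of Psme1 and Psme2 were both lost without Lyn-/- mouse 2 or mouse 4, and 1 of them was lost without Lyn-/-Ifnar1-/- mouse 1, mouse 2 or mouse 4. Without Lyn-/-Ifnar1-/- mouse 3, 4 members were called lower, with 5.74% of all genes. No member was called by limma with libraries scaled to the same RPKM sum (6 lower at an unadjusted p under 0.05), with hemoglobin left out of that sum (4 lower) or with only these 2 genotypes in the fit (3 lower). Of the markers, 6 of 10 monocyte and 4 of 14 neutrophil markers fell, with 1 of 26 erythroid markers, and their part in Psme1 and Psme2 was not tested.

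Loss of 1 copy of Irf5 in the Lyn-/- mice went with lower levels of 4 members, 9.52% of the 42, against 14.6% of all genes called in either direction, 6.12% called higher and 8.46% called lower. They were the regulatory particle genes Psmd1, Psmd2 and Psmd8 and the activator gene Psme4. Psmd2, whose product is a scaffold that receives ubiquitin carriers, was at 11.4, 11.1, 11.2 and 13.9 RPKM in Lyn-/- mice and at 7.79, 5.01, 4.90 and 7.88 in Lyn-/-Irf5+/- mice (log2 fold change -0.87 ± 0.21, adjusted p = 0.00788, limma). Psmd1, the neighbouring scaffold, was at 4.49, 3.78, 4.35 and 3.22 RPKM in Lyn-/- and at 3.18, 2.43, 1.72 and 2.39 in Lyn-/-Irf5+/- mice (-0.62 ± 0.16, adjusted p = 0.0145). Neither scaffold gene overlapped between the groups, and the reads of Psmd1 share their locus with the protein-coding gene Gm21972, with Gm37914 and with the small RNA gene Gm22786 on the same strand, and with Htr2b on the opposite strand.

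Psme4 was at 3.17, 3.43, 2.90 and 3.50 RPKM in Lyn-/-Irf5+/- mice, within the WT range (-1.38 ± 0.34 against Lyn-/-, adjusted p = 0.00963, limma). Psmd8 was at 37.3, 41.2, 46.1 and 42.1 RPKM (-0.75 ± 0.23, adjusted p = 0.0350), a call that was lost without any 1 of the 4 Lyn-/-Irf5+/- mice and without Lyn-/- mouse 2 or mouse 4 (highest adjusted p = 0.106). The fifth member by adjusted p went the other way without passing: Psmb1, a structural beta subunit, was at 51.6, 43.3, 38.6 and 39.7 RPKM in Lyn-/- and at 47.4, 63.9, 68.6 and 55.7 in Lyn-/-Irf5+/- mice (0.44 ± 0.13, adjusted p = 0.0526). Psme3 was at 579.0, 714.7, 685.5 and 655.7 RPKM, below all Lyn-/- mice but not called (-0.94 ± 0.37, adjusted p = 0.0910). Psme1 was at 70.9, 71.8, 85.5 and 81.4 RPKM (-0.24 ± 0.15, adjusted p = 0.297) and Psme2 at 29.6, 34.2, 32.5 and 37.1 (-0.18 ± 0.14, adjusted p = 0.435).

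The members' median in this comparison was -0.18, against -0.00 over all genes, and it was 0.13, against 0.25 over all genes, when libraries were scaled to the RPKM sum outside hemoglobin. Erythroid markers moved with these members, 15 of 26 falling, as did 7 of 10 monocyte markers, while 10 of 12 B cell markers rose. The erythroid score was 5.81 to 6.11 in Lyn-/-Irf5+/- and 6.63 to 8.03 in Lyn-/- mice. The groups did not overlap, so score and genotype cannot be told apart in this comparison. With the erythroid score as a covariate Psmd1 was still called lower, while Psme4 (-0.27, adjusted p = 0.276, limma), Psmd8 (-0.03, 0.900) and Psmd2 (-0.48, 0.122) were not. That fit also called Psmc1, Psmc2 and Psmd7 lower and Psmd4 and Psmd5 higher, with 10.9% of all genes lower and 10.5% higher. Without Lyn-/- mice 2 and 4 only Psmd1 was called, with 3.16% of all genes lower. Without Lyn-/-Irf5+/- mouse 3, 2 members were called lower, with 5.53% of all genes, and without Lyn-/-Ifnar1-/- mouse 3, which enters only the shared estimate of spread, 7 were, with 11.4% of all genes.

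Loss of both copies of Irf5 went with lower levels of 6 members, 14.3% of the 42, against 13.9% of all genes called in either direction, 5.36% called higher and 8.58% called lower. They were the activator genes Psme3 and Psme4, the inhibitor gene Psmf1 and the regulatory particle genes Psmd2, Psmd4 and Psmd8. Psme3 was at 334.5, 415.3, 384.1 and 495.8 RPKM in Lyn-/-Irf5-/- mice 1 to 4, below every Lyn-/- mouse and below every WT mouse, mouse 4 by a narrow margin (log2 fold change -1.64 ± 0.37, adjusted p = 0.00500, limma). Psmd4 was at 89.0, 109.8, 107.0 and 122.8 RPKM, also below every WT mouse (-1.53 ± 0.34, adjusted p = 0.00453). Psme4 was at 2.52, 2.84, 2.64 and 2.92 RPKM (-1.60 ± 0.34, adjusted p = 0.00322). Of the WT mice, only mouse 4 lay within this range of Psme4.

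Psmf1 was at 21.5, 25.0, 20.5 and 30.2 RPKM (-1.29 ± 0.37, adjusted p = 0.0229, limma), Psmd8 at 34.9, 35.5, 37.9 and 41.4 (-0.90 ± 0.23, adjusted p = 0.0126) and Psmd2 at 6.63, 6.96, 7.21 and 7.08 (-0.72 ± 0.21, adjusted p = 0.0217). All 3 lay below every Lyn-/- mouse. Psme1 and Psme2 did not: Psme1 was at 73.1, 73.1, 70.8 and 83.7 RPKM (-0.28 ± 0.15, adjusted p = 0.231) and Psme2 at 33.8, 33.6, 40.2 and 34.4 (-0.09 ± 0.14, adjusted p = 0.741). No alpha ring, beta ring, ATPase or chaperone gene was called, and the chaperone gene Psmd10 came nearest (-0.66 ± 0.22, adjusted p = 0.0506).

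The members' median was -0.10, against 0.06 over all genes. It was 0.44 against 0.54 with libraries scaled to the same RPKM sum and 0.58 against 0.65 with hemoglobin left out of the sum, so that its sign depended on the scaling and its place below all genes did not. Psme3, Psme4 and Psmd4 were called lower under both scalings. In these mice 20 of 26 erythroid markers fell, and the erythroid score was 5.18, 5.51, 5.34 and 5.72. It was 6.63 to 8.03 in Lyn-/- mice, with no overlap, so score and genotype cannot be told apart in this comparison. With the score as a covariate, the log2 fold changes were 0.06 for Psme3 (adjusted p = 0.834, limma), 0.03 for Psmd4 (0.931), -0.01 for Psme4 (0.976), 0.12 for Psmd8 (0.642), -0.16 for Psmd2 (0.735) and 0.49 for Psmf1 (0.0434). Psmf1 was thus called higher in that fit, as was Psmd11 (0.76, 0.0287). Psmc1 (-0.94, 0.0272), Psmd7 (-0.84, 0.0255) and Psmg3 (-1.13, 0.0235) were called lower. Of all genes 8.06% were higher there and 6.44% lower. Without Lyn-/- mouse 4, 3 members were called (Psme3, Psme4 and Psmd4), with 5.88% of all genes lower and 3.45% higher. Without mice 2 and 4 none was called by limma, with 6 lower at an unadjusted p under 0.05. In that fit 138 of all genes were higher and 190 lower.

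Set against each other, the Lyn-/-Ifnar1-/- and Lyn-/-Irf5-/- mice differed in 1 member, Psmd4 (2.38% of the 42, against 4.01% of all genes in either direction, 1.95% higher and 2.06% lower). Its level was 165.0, 142.4, 568.1 and 411.1 RPKM in the former and 89.0, 109.8, 107.0 and 122.8 in the latter, a log2 difference of 1.35 ± 0.34 (adjusted p = 0.0295, limma). The groups did not overlap. The call was lost without Lyn-/-Ifnar1-/- mouse 3 or mouse 4 or any of the Lyn-/-Irf5-/- mice, and 7 members were called higher without Lyn-/-Ifnar1-/- mouse 1, with 6.73% of all genes, and 6 without mouse 2, with 7.83%. The same direction without a call was seen for Psme3 (1.29 ± 0.37, adjusted p = 0.0521), Psme4 (1.09 ± 0.34, 0.0680) and Psmd2, at 9.39, 8.69, 18.9 and 8.48 RPKM in Lyn-/-Ifnar1-/- mice (0.59 ± 0.21, 0.103). Psme1 (-0.27 ± 0.15, 0.311) and Psme2 (-0.43 ± 0.14, 0.0935) were lower in the point estimate, with no overlap between the groups. The members' median was -0.01, against -0.03 over all genes, and 8 of 26 erythroid markers were higher in the Lyn-/-Ifnar1-/- mice.

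The 5 comparisons share samples, so each gene's values are given side by side. For Psme1 the means ± SD were 61.3 ± 6.54 RPKM in WT, 92.6 ± 19.6 in Lyn-/-, 62.4 ± 5.83 in Lyn-/-Ifnar1-/-, 77.4 ± 7.18 in Lyn-/-Irf5+/- and 75.2 ± 5.82 in Lyn-/-Irf5-/- mice (n = 4 each). The order for Psme3 was another: 653.6 ± 154.2, 1331 ± 493, 1185 ± 815.5, 658.7 ± 58.4 and 407.4 ± 67.6 RPKM. Lyn-/-Ifnar1-/- mice thus had a mean of Psme1 that differed from WT by less than the SD of either, and the mean next to the highest in Psme3, where their spread was the widest of the genotypes.

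Other genes of the proteasome pathway, which the symbol rule does not take, were counted from a list of 37 symbols, of which 32 were tested. In Lyn-/- against WT 9 rose and 2 fell, against 17.1% of all genes called higher and 15.5% called lower. In Lyn-/-Ifnar1-/- against Lyn-/- 1 fell, against 3.96% of all genes. In Lyn-/-Irf5+/- against Lyn-/- 1 rose and 7 fell, against 6.12% and 8.46%, and in Lyn-/-Irf5-/- against Lyn-/- 9 fell, against 8.58%. Between Lyn-/-Ifnar1-/- and Lyn-/-Irf5-/- 1 was higher in the former, against 1.95% of all genes. Of the 7 tested transcription factors and regulators of subunit genes, 3 rose in Lyn-/- mice: Nfe2l2 and its small MAF partners Mafg and Mafk. Nfe2l2, the NRF2 gene, was at 12.5, 11.2, 13.3 and 7.70 RPKM in WT and at 38.5, 26.6, 32.3 and 30.6 in Lyn-/- mice (log2 fold change 1.49 ± 0.18, adjusted p = 2.54e-06, limma). Its level was 16.8 ± 3.14 RPKM in Lyn-/-Ifnar1-/- (-0.91 ± 0.18 against Lyn-/-, adjusted p = 0.00425), 17.9 ± 2.93 in Lyn-/-Irf5+/- (-0.82 ± 0.18, 0.00480) and 18.2 ± 1.58 in Lyn-/-Irf5-/- mice (-0.79 ± 0.18, 0.00565). Unlike Psme3 and Psmd4, Nfe2l2 was not high in Lyn-/-Ifnar1-/- mouse 3 (12.4 RPKM).

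Among the 10 tested genes that deliver substrates was Vcp, the segregase that extracts ubiquitinated proteins. Vcp was at 12.5, 26.4, 22.4 and 34.8 RPKM in Lyn-/- mice 1 to 4, in the order of their erythroid scores, and at 9.49, 8.74, 38.4 and 19.8 in Lyn-/-Ifnar1-/- mice, where mice 3 and 4 were again the high ones (-0.49 ± 0.36 against Lyn-/-, adjusted p = 0.444, limma). The part of erythroid RNA in these levels was not tested. The means were 8.42 ± 1.43 RPKM in WT, 24.0 ± 9.28 in Lyn-/-, 19.1 ± 13.8 in Lyn-/-Ifnar1-/-, 6.08 ± 1.92 in Lyn-/-Irf5+/- (-1.85 ± 0.36 against Lyn-/-, adjusted p = 0.00208, limma) and 7.06 ± 1.11 in Lyn-/-Irf5-/- mice (-1.62 ± 0.36, 0.00463). Of the 11 subunits and interactors outside the symbol rule, Shfm1, a small subunit of the lid, rose in Lyn-/- mice from 64.6 ± 8.41 to 140.7 ± 15.5 RPKM (1.12 ± 0.20, 0.000271), and Pomp, the maturation factor of the core particle, from 27.0 ± 4.34 to 37.5 ± 5.79 RPKM (0.47 ± 0.16, 0.0354). Of the 4 ubiquitin genes, 2 fell in Lyn-/-Irf5-/- mice, Ubb among them, and 1 fell and 1 rose in Lyn-/-Irf5+/- mice. The gene that rose was Rps27a, a fusion of ubiquitin with a ribosomal protein, from 87.3 ± 5.93 to 143.4 ± 39.8 RPKM (0.67 ± 0.18, 0.0194).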

How the data were processed

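Peripheral blood RNA had been collected in RNAprotect tubes, made into strand-specific libraries and sequenced on a NextSeq instrument from 4 mice of each of 5 genotypes. The authors aligned reads with STAR to mm10, counted them with featureCounts and deposited 1 table of RPKM values scaled by edgeR's TMM factors. Annotation, strand setting and any gene filter are not given in the sources used here, and nothing says whether the mice shared a cage, day or run. The p-values set differences between genotypes against the spread between these mice. An effect of cage, day or run that went with genotype could not be told apart from it.

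RPKM values were put on the log2(RPKM + 0.5) scale, on which all fold changes are given; it understates the change of low genes. Genes that reached 1 RPKM in 4 or more of the 20 libraries (8696) were fitted in limma 3.58.1 under R 4.3.3, with a variance trend and 1 coefficient for each genotype over all 20 mice. Tests were two-sided, with Benjamini-Hochberg adjustment over all genes within each of 5 comparisons or the F test and a threshold of 0.05. Counts of members at an unadjusted p have no share of all genes beside them, so they cannot be set against a background. Values with ± are means and SD over 4 mice, or a log2 fold change and its SE. Catalytic subunit ratios were compared by exact permutation with adjustment over 15 tests. RPKM values carry no depth of their own, and reads were recovered for 9227 of 9228 genes as whole multiples within 0.05. Promoter windows came from RefSeq. Python 3.11.15 was used for the rest, and the code was tested on simulated data.

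Members, marker lists and pathway lists were chosen with earlier results of these data known. Genes given in every mouse were the 5 members with the lowest adjusted p in each comparison, every called member, the catalytic subunits and their inducible counterparts, Psme1 and Psme2, and the highest and lowest member, with the pathway genes named chosen after their values were seen. Alternatives were the pseudocount, the filter, the scaling of libraries, the libraries fitted, the variance trend, a replicate block, the erythroid score as a covariate, and mice left out. No column of the table was left unused. Some items withheld for evaluation are not reported here.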

Additional observations from a re-analysis of the deposited data

Results flagged for a closer look

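In groups of 4 mice, 5 of 105 groups checked over 21 genes held a mouse whose gap to the nearest of the other 3, as a share of the group's range, was above Dixon's 95% critical value, and chance gives about 1 in 20 groups. Psme4 was at 2.78 RPKM in WT mouse 4, below the other WT mice (3.77 to 3.93 RPKM). Psmd2 was at 13.9 RPKM in Lyn-/- mouse 4, against 11.1 to 11.4 in the others, and at 18.9 RPKM in Lyn-/-Ifnar1-/- mouse 3, against 8.48 to 9.39. Psme2 was at 40.2 RPKM in Lyn-/-Irf5-/- mouse 3, above 33.6 to 34.4 in the others. Psmb10 was at 20.7 RPKM in Lyn-/-Irf5-/- mouse 4, below 23.2 to 23.4 in the others. Lyn-/- mouse 4 and Lyn-/-Ifnar1-/- mouse 3 also had the highest erythroid marker scores of their genotypes, and the part of this in Psmd2 was not tested.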

How the results depend on the processing

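Comparisons are taken in the order of the report, from Lyn-/- against WT to the one between Lyn-/-Ifnar1-/- and Lyn-/-Irf5-/- mice. Called members numbered 10, 2, 4, 6 and 1, and these counts stayed within 1.5 times under both other pseudocounts, no filter and median-of-ratios scaling. A filter at 5 RPKM added 1 higher member in the third comparison and gave 2 in the last, with 7.89% and 5.65% of all genes higher. Fitting only the genotypes compared left 0 called in the second (3 at an unadjusted p under 0.05, limma) and 0 in the last (7). In both of these 0.782% of all genes were lower, with 0.161% and 0.046% higher. Fits without a variance trend gave 2 in the last, with 1.81% of all genes higher. The replicate numbers do not pair the mice (correlations of same-numbered mice -0.24 to 0.50), and a replicate block gave 10, 2, 5, 6 and 2. With that block 17.6%, 2.91%, 5.82%, 5.2% and 3.06% of all genes were higher and 15.3%, 3.93%, 8.59%, 9.06% and 2.21% lower. Planned fits with edgeR and DESeq2 were not run because the values are RPKM. A fit by limma-voom on the recovered reads, added after seeing the data, gave 1 higher in the third and 4 in the last, with 12 in the first, 2 in the second and 7 in the fourth, and called 1644 of all genes higher and 1469 lower in the first. In the next 4 comparisons it called 2.68%, 5.87%, 6.26% and 3.68% of all genes higher and 4.03%, 8.35%, 10.3% and 2.19% lower.

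With the same RPKM sum in each library, 3, 0, 5, 3 and 0 members were called, 4 differed among genotypes, the members' medians were -0.027, -0.33, -0.42, 0.44 and -0.72 and those of all genes -0.25, -0.14, -0.20, 0.54 and -0.66. Of all genes, 5.92%, 0.0345%, 0.172%, 4.06% and 0.31% were then called higher and 3.82%, 1.35%, 5.08%, 3.01% and 1.92% lower. With the sum outside hemoglobin, the first comparison had 2 higher (Psme4 and Psmd4) and 1 lower (Psmd5), the second 0, the third 3 lower, the fourth 5 higher and 4 lower and the last 2 higher and 3 lower. This scaling called 5.92%, 0.471%, 3.88%, 32.4% and 1.52% of all genes higher and 28.1%, 1.24%, 2.92%, 3.98% and 8.26% lower. Medians were then -0.35, -0.12, 0.13, 0.58 and -0.65, against -0.53, 0.05, 0.25, 0.65 and -0.59 for all genes. The share of called genes that were higher was 52.4%, 40.9%, 42%, 38.4% and 48.7% as deposited, 60.8%, 2.5%, 3.28%, 57.4% and 13.9% with the same sum and 17.4%, 27.5%, 57%, 89.1% and 15.5% with hemoglobin left out. Log2 fold changes changed sign under the same sum for Psmb6 in the first comparison (-0.17), Psme1 (0.27) and Psme2 (0.45) in the fourth and Psmd2 in the last (-0.13). Outside hemoglobin they did so in the first for Psme1 (-0.014), Psme2 (-0.14), Psma7 (-0.13), Psmd9 (-0.22), Psmb5 (-0.089), Psmb6 (-0.50), Psmb7 (-0.044) and Psmb10 (-0.28), in the third for Psme1 (0.072) and Psme2 (0.13), in the fourth for Psme1 (0.41) and Psme2 (0.60) and in the last for Psmd2 (-0.063).

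With the erythroid score as a covariate, the first had 2 higher and 1 lower, the second 5 lower, the third 2 higher and 4 lower with a median of -0.063, the fourth 2 higher and 3 lower and the last 0 (4 unadjusted). That fit called 13.6%, 11.9%, 10.5%, 8.06% and 0.184% of all genes higher and 10.7%, 11.3%, 10.9%, 6.44% and 1.06% lower. In every comparison but the second the score did not overlap between the genotypes, so score and genotype cannot be told apart there. Signs changed in the first for Psme3 (-0.29), Psmf1 (-0.26), Psmd4 (-0.17), Psmb8 (0.20) and Psmb9 (0.13), in the second for Psme3 (0.18), in the third for Psme3 (0.26) and in the fourth for Psme3 (0.063), Psmf1 (0.49), Psmd4 (0.031), Psmd8 (0.12) and Psme2 (0.028). Without Lyn-/- mice 2 and 4, chosen after seeing the data, counts were 1, 0, 1, 0 and 2, with 5 among genotypes, Psme3 was at 0.076 in the second and Psme2 at 0.059 in the fourth. Of all genes, 10.3%, 1.41%, 2.3%, 1.59% and 2.04% were then higher and 7.99%, 2.51%, 3.16%, 2.18% and 1.97% lower. Without Lyn-/-Ifnar1-/- mice 3 and 4, the member counts were 13, 7, 2 higher and 9 lower, 8 and 0, and the log2 ratio of Psmb8 to Psmb5 in the last was 0.012. All genes were then higher in 22.3%, 3.51%, 8.89%, 7.98% and 0.0805% and lower in 18.5%, 8.51%, 13.6%, 12.5% and 0.874%.

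With each mouse left out in turn, higher members ranged from 5 to 12 in the first, where 13.6% to 20.1% of all genes were higher. Lower members ranged from 0 to 4, 2 to 7 and 3 to 8 in the next 3. Of all genes 2.63% to 5.74%, 5.53% to 11.4% and 5.88% to 11% were lower there. In the third 0 to 2 members were higher, with 4.17% to 7.56% of all genes. In the last 0 to 7 were higher and 0 to 1 lower, with 0.207% to 7.83% and 0.977% to 4.39% of all genes. Among genotypes 6 to 12 members differed. For the F test, the share of all genes is given for the main fit only. Values that changed sign ranged from -0.042 to 0.18 for Psmb6 and -0.13 to 0.073 for Psmb9 in the first. So did the log2 ratios of Psmb8 to Psmb5 (-0.17 to 0.26) and Psmb9 to Psmb6 (-0.030 to 0.33) in the second, Psmb9 to Psmb6 in the first (-0.29 to 0.075) and Psmb10 to Psmb7 in the third (-0.22 to 0.091), and the members' median in the last (-0.060 to 0.035). The causes were not tested.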
